A study of Mus musculus with 8 samples.

Results

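Glycolysis and its hypoxia-responsive regulators were followed through the mouse nephric duct lineage as a module of 37 genes, each read from the array probe that carries its symbol and, where a gene had several probes, from the one with the highest mean level. All 37 genes were measured, out of 34837 gene names on the array and 29361 with a probe well above background on at least 1 array. The cells came from ICR mouse embryos and were sorted by flow cytometry on a green fluorescent reporter. Hoxb7-GFP cells were precursors of the ureteric bud, the epithelial outgrowth of the nephric (Wolffian) duct that builds the collecting ducts of the kidney, and Wt1-GFP cells were intermediate mesoderm, which gives rise to the nephron progenitors. There were 8 arrays in 5 groups: Hoxb7-GFP cells at E8.75 (1 array), at E9.5 (rostral and caudal duct on 1 array each), at E10.5 (likewise 2 arrays) and at E11.5 (1 array, the ureteric bud), and E9.5 Wt1-GFP cells from the rostral and from the caudal embryo (2 arrays). The sample titles from E9.5 on state that the Hoxb7-GFP cells were negative for Flk1, the endothelial receptor also called Kdr. The E8.75 title does not state it, although the series design describes this gate for all Hoxb7-GFP cells, and the Wt1-GFP titles name no second gate. Nothing in the labels says that arrays came from separate litters, how many embryos were pooled, or in which other cells either reporter is active.

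Glycolysis splits glucose into pyruvate in the cytoplasm, and lactate dehydrogenase can turn that pyruvate into lactate, which leaves the cell through monocarboxylate transporters. Hypoxia-inducible factors (HIF) raise the transcription of many of these genes: with oxygen present, prolyl hydroxylases (the Egln proteins) mark the alpha subunits Hif1a and Epas1 for destruction, and with little oxygen the subunits persist and bind hypoxia response elements. Glycolysis is known to be active in early embryos, and in presomitic mesoderm it is known to be highest in the posterior, least differentiated cells. RNA levels, as measured here, report neither HIF protein nor flux through the pathway.

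Of the 37 genes, 34 had at least 1 promoter entry from RefSeq on the GRCm38.p6 build (47 entries). The 250 bases before the start were searched for ACGTG and GCGTG, both forms of the core of a hypoxia response element, on either strand, where neighbouring matches may overlap. A match was present in 39 of the 47 entries (82.98%) and in 12679 of all 32851 entries (38.6%). By gene, 31 of the 34 held a match at some start, against 41.54% of all symbols. Median GC content was 60.4% in the entries of the module and 52.4% over all entries, so the windows also differed in base composition. Promoters of 5 genes are printed because the results turn on these genes, with the matches in capitals. Ldha, Bnip3 and Ankrd37 had lower levels at E9.5 than at E8.75 and hold 5, 5 and 4 matches. Ldhb and Eno2 went the other way and hold 1 and 0. These 5 were chosen after their values were seen, and the number of matches did not follow the direction in other genes: Tpi1 and Gpi1, also lower at E9.5, hold 0, and the second start of Ldha holds 1. The windows lie at chr7:46845554-46845803 (+ strand, the first of 2 listed starts of Ldha), chr7:138909507-138909756 (- strand, Bnip3), chr8:45999851-46000100 (- strand, Ankrd37), chr6:142507958-142508207 (- strand, Ldhb) and chr6:124769674-124769923 (- strand, Eno2). A match is a description of the letters in the window, not a bound site.
Ldha: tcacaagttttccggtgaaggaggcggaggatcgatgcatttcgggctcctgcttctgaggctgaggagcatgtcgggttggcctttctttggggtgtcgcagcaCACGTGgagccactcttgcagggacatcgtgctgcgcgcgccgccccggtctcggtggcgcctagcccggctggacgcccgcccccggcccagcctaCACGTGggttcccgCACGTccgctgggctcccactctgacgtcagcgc
Bnip3: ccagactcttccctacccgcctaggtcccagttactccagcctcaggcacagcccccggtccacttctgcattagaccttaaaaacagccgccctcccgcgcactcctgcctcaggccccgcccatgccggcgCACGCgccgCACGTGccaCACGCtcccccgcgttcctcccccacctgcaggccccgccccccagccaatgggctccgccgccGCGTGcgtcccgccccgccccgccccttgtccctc
Ankrd37: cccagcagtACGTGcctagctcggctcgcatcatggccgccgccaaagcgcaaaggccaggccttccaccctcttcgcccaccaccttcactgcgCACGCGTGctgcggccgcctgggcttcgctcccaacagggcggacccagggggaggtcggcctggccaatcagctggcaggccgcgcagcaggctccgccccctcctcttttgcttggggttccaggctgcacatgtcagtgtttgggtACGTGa
Ldhb: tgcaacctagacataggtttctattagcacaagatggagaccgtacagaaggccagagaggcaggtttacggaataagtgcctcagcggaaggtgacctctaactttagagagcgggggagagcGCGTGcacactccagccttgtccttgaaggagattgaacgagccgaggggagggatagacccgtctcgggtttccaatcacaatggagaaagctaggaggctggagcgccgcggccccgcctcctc
Eno2: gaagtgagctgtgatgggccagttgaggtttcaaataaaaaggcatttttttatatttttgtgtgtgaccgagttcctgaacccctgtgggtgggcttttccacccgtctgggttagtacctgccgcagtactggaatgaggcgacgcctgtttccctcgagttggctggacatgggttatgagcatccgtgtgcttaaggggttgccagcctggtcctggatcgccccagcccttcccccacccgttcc

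A level is the log2 of a probe's signal over its array's 75th percentile, so 0 is the signal of that percentile, and a difference of 1 is a 2-fold difference. A level belongs to its probe and says nothing of another gene's level. Probes called well above background made up 60.6% to 69.2% of an array, 0 spots were saturated, and array pairs correlated at r = 0.923 to 0.964. In the module, 35 of 37 genes were well above background on all 8 arrays. The exceptions were Slc16a1 (1 of 2 E9.5 duct arrays and 0 of 2 Wt1-GFP arrays) and Adm (1 of 2 Wt1-GFP arrays). The summed signal of 11 duct markers was 72.8 to 134.1 (in units of the 75th percentile) in the Hoxb7-GFP arrays and 17.1 to 25.5 in the Wt1-GFP arrays, and that of 7 intermediate mesoderm and coelomic markers ran the other way (0.5 to 12.5 against 49.6 to 49.9). At E8.75 some duct markers did not follow the sum. Krt8 (-1.23) and Krt18 (0.52) lay below both Wt1-GFP arrays (1.03 and 0.84 for Krt8, 3.24 and 2.45 for Krt18). Cdh1 was not well above background at E8.75, and the other duct markers lay above both Wt1-GFP arrays. Because groups held 1 or 2 arrays, the fit had 2 residual degrees of freedom, and an exact permutation test of 2 against 2 cannot go below 0.333 (two-sided). These degrees of freedom come from how the rostral minus caudal difference varied among the split groups. The p-values and standard errors measure only that spread, which may be technical, and no spread between repeats of a sample. In limma with Benjamini-Hochberg adjustment over all 29361 names, 0 names (0%) passed adjusted p = 0.05 in any of the 7 comparisons, so 0 genes of the module did, while 1717 to 4682 names had an unadjusted p under 0.05. Differences are therefore described as array levels, and a gene is counted as apart where the arrays of both groups do not overlap and their means differ by at least 1, beside the share of all names that meet the same rule.

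The main pattern lay in the duct time course. The E8.75 array had the highest level of the 6 duct arrays for 21 of the 37 genes, against 26.1% of all names, and the lowest for 4 (22.2%), and the rostral E9.5 array had the lowest level for 16 of them, against 10.9% of all names. After subtracting each gene's mean over the 8 arrays, the median over the module was 0.60 at E8.75, -0.48 and -0.17 in the rostral and caudal E9.5 duct, -0.17 and 0.12 in the rostral and caudal E10.5 duct, 0.23 in the E11.5 bud, and 0.07 and 0.03 in the rostral and caudal Wt1-GFP cells. Over all names the same median stayed between -0.06 and 0.05 on every array. The module thus stood highest at E8.75, lowest at E9.5 and in between later, with the rostral part below the caudal part at both duct stages that were split.

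**Figure D1:**
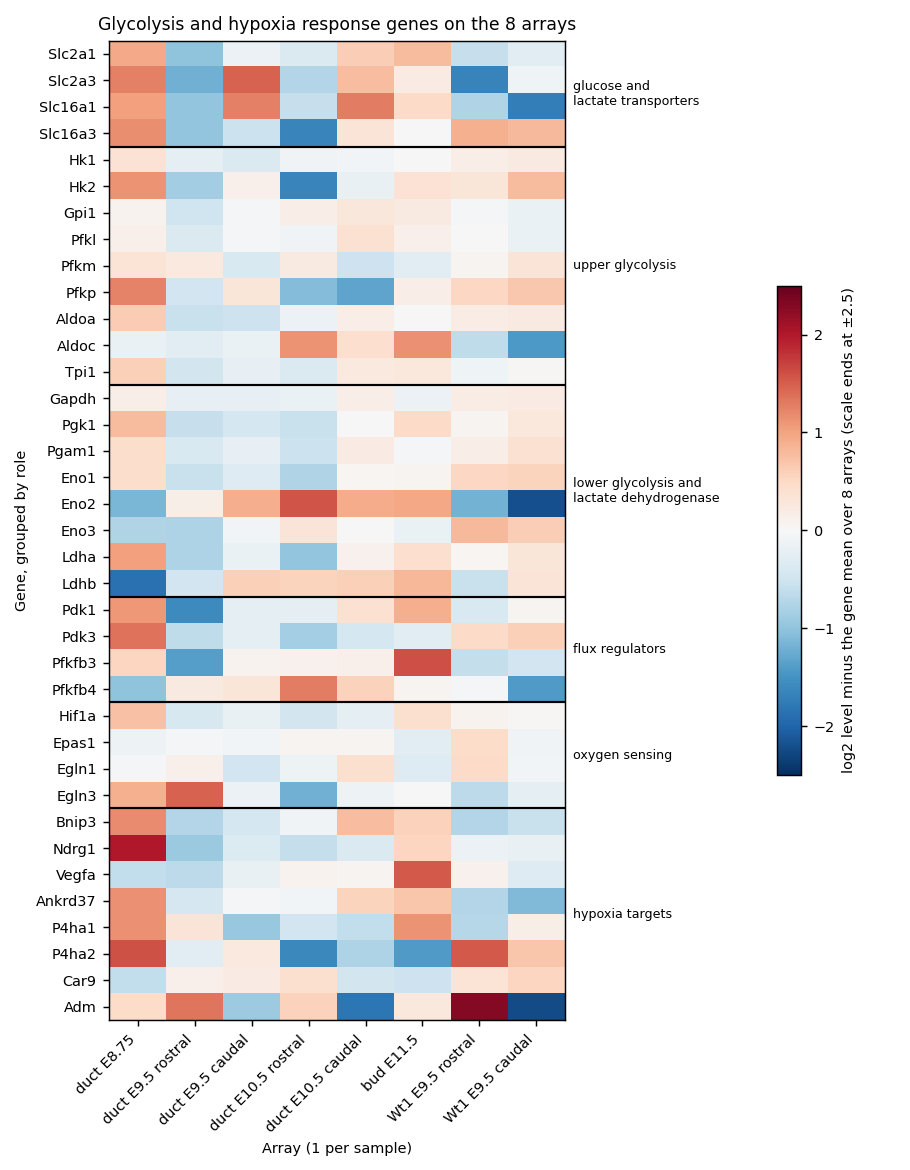
Colour shows the log2 level of each of the 37 genes (rows, grouped by role) on each of the 8 arrays (columns) minus the gene's mean over the arrays. The E8.75 column is mostly red (median 0.60), the rostral E9.5 column is mostly blue (median -0.48), and 4 genes, Ldhb, Eno2, Pfkfb4 and Car9, have their lowest duct level at E8.75.

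Between E8.75 and E9.5, 16 of the 37 genes were apart and lower at E9.5, where 10.7% of all names were, and 3 were apart and higher, where 11.7% of all names were. Without regard to size, the arrays did not overlap for 24 lower genes (39.9% of all names) and 5 higher genes (36.1%). The median difference over the module was -0.90, against -0.02 over all names. At an unadjusted limma p under 0.05, 13 genes were lower (8.52% of all names were) and 1 was higher (7.08% of all names were). With limma's intensity trend, which lets the prior spread follow the signal, 375 names (1.28%) passed adjusted p = 0.05 in this step, among them 4 genes of the module, all lower at E9.5 (0.651% of all names passed in that direction, 0.627% in the other): Aldoa, Pgk1, Pdk3 and Bnip3. That count of 4 was 0 when either E9.5 or either E10.5 array was left out, 2 without the E11.5 array and 7 without either Wt1-GFP array. The E8.75 group is 1 array, so its own spread is unknown.

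Among the transporters, Slc2a1 (GLUT1), the widespread glucose carrier, had a level of 5.26 at E8.75, 3.31 and 4.18 in the rostral and caudal E9.5 duct, 3.95 and 4.93 in the rostral and caudal E10.5 duct, 5.10 in the E11.5 bud and 3.75 and 4.05 in the rostral and caudal Wt1-GFP cells. It was high at both ends of the time course, both E9.5 arrays lay below the E8.75 array, and the caudal part exceeded the rostral part each time. The fitted difference of E9.5 from E8.75 was -1.52 (SE 0.34, adjusted p = 0.25). Slc16a3 (MCT4), an exporter of lactate and a known HIF target, had levels of 2.80 at E8.75, 0.63 and 1.08 at E9.5, -0.02 and 1.94 at E10.5, 1.61 at E11.5, and 2.52 and 2.43 in the Wt1-GFP cells (rostral then caudal here and in every pair below). All later duct arrays lay below the E8.75 array, with a difference of -1.94 (SE 0.72, adjusted p = 0.33) at the first step, and a second probe of the gene gave -1.93. Slc2a3 (GLUT3), a high-affinity glucose carrier, was not apart over time because its E9.5 arrays lay on both sides of the E8.75 level: 4.60 at E8.75, 2.14 and 4.81 at E9.5, 2.60 and 4.11 at E10.5, 3.53 at E11.5, and 1.66 and 3.22 in Wt1-GFP cells. Slc16a1 (MCT1), a carrier of lactate and pyruvate, was dim, with levels from -5.76 to -2.75 that were not well above background in Wt1-GFP cells.

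Of the 9 genes from hexokinase to triose phosphate isomerase, all 9 had a fitted difference below 0 at the first step with the probes used. Their median was -0.66, and 3 were apart. Hk2, the hypoxia-responsive hexokinase that traps glucose in the cell, had levels of 2.58 at E8.75, 0.59 and 1.58 at E9.5, -0.19 and 1.29 at E10.5, 1.83 at E11.5, and 1.77 and 2.25 in Wt1-GFP cells. The E8.75 array was the highest of the 8 and both rostral duct parts were the lowest (difference -1.49, SE 0.40, adjusted p = 0.27). Pfkp, the platelet form of phosphofructokinase, had levels of 1.30, then -0.43 and 0.36, then -1.01 and -1.26, then 0.23 at E11.5, and 0.58 and 0.73 in Wt1-GFP cells. Its E10.5 arrays lay below every other array, with differences of -1.33 (SE 0.41) at the first step, -1.10 (SE 0.33) at the second and 1.37 (SE 0.41) at the third. A second, dimmer probe of Pfkp gave 0.11, -0.05 and -1.28 for the same steps, so this course holds for the probe used. Aldoa, the main aldolase, had levels of 8.54 at E8.75, 7.33 and 7.38 at E9.5, 7.75 and 8.07 at E10.5, 7.91 at E11.5, and 8.08 and 8.12 in Wt1-GFP cells. The E9.5 duct pair was the lowest, and the 2 arrays of that pair were closer to each other than to any other array (difference -1.18, SE 0.26, adjusted p = 0.25, or 0.0475 with the intensity trend). Aldoc, an aldolase of brain and some epithelia, did not follow: it stood at -0.58, then -0.71 and -0.58, then 0.69 and 0.01, then 0.71, with -1.06 and -1.86 in Wt1-GFP cells. Hk1, Gpi1, Pfkl and Pfkm differed by -0.66 to -0.31 at the first step, and Tpi1 by -0.94. The Hk1 probe used maps to chromosome 5 while the gene lies on chromosome 10, and the brightest Hk1 probe on chromosome 10 gave -0.63 at the first step and 1.03 at the second. The other Hk1 probe on chromosome 10 gave 0.17 and 1.31, so the direction of the first step depends on the probe.

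In the later steps of the pathway, Gapdh, the dehydrogenase often used as a reference gene, had levels of 8.38 at E8.75, 8.0 and 8.0 at E9.5, 8.04 and 8.38 at E10.5, 8.07 at E11.5, and 8.40 and 8.41 in Wt1-GFP cells. On this probe the arrays lay within 0.41 of each other, and the first step was -0.38 (SE 0.27, adjusted p = 0.55). Gapdh has 8 probes, of which the one used had the narrowest range, and another ranged over 1.99. They disagreed by stage: the first step ran from -0.63 to 0.28 over the probes. The bud differed from the E10.5 duct by 0.19 on one of them and by -1.42 on another. Pgk1, which makes the first ATP of the pathway, had levels of 7.67 at E8.75, 6.30 and 6.42 at E9.5, 6.31 and 6.87 at E10.5, 7.34 at E11.5, and 6.94 and 7.13 in Wt1-GFP cells. E8.75 and E11.5 were the highest, and the E9.5 pair was near the bottom (difference -1.30, SE 0.28, adjusted p = 0.25). Ldha, the lactate-forming subunit of lactate dehydrogenase, had levels of 8.18 at E8.75, 6.38 and 6.98 at E9.5, 6.17 and 7.27 at E10.5, 7.57 at E11.5, and 7.20 and 7.44 in Wt1-GFP cells. The E8.75 array was the highest of the 8, and the difference was -1.50 (SE 0.37, adjusted p = 0.26) on this probe and -1.33 and -1.62 on the other probes. Pgam1 and Eno1 were lower by smaller amounts (-0.74 and -0.88) without reaching the 1-unit mark. The single probes named Pgk1 and Eno1 carry coordinates on chromosomes 3 and 2, while the genes lie on chromosomes X and 4, so related copies may share their signal.

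The 3 genes apart and higher at E9.5 were Ldhb, Eno2 and Pfkfb4, each with a close relative in the module. Ldhb, the heart-type subunit whose enzyme favours pyruvate formation, had levels of 1.94 at E8.75, 3.32 and 4.40 at E9.5, 4.37 and 4.40 at E10.5, 4.63 at E11.5, and 3.24 and 4.12 in Wt1-GFP cells. Every later array lay above the E8.75 array, by 1.92 (SE 0.43, adjusted p = 0.25) at the first step, and the fitted slope along the duct course was 0.90 per embryonic day (SE 0.16, adjusted p = 0.15, or 0.037 with the intensity trend). Along this slope 689 names (2.35%) passed with the intensity trend, 2 of them in the module, Ldhb and Vegfa, both higher with age (1.37% of all names passed in that direction), and 0 genes of the module passed lower (0.977%). The count of 2 was 0 without the E8.75 or the rostral E10.5 array, 1 without the caudal E10.5 array and 9 without the E11.5 array. Eno2, the enolase known from neurons, had levels of -1.56 at E8.75, -0.27 and 0.49 at E9.5, 1.16 and 0.50 at E10.5, 0.54 at E11.5, and -1.61 and -2.62 in Wt1-GFP cells. The later duct arrays were all above the E8.75 and the Wt1-GFP arrays, and the first step was 1.68 (SE 0.64, adjusted p = 0.34). Neural markers as a list (7 genes) summed to 7.8 at E8.75, 102.1 and 9.8 at E9.5, 8.7 and 22.0 at E10.5, 6.8 at E11.5, and 5.9 and 2.5 in Wt1-GFP cells. In the rostral E9.5 duct the brightest of these markers was Tubb3 (level 6.45), followed by Stmn2 (3.47). The part of neural cells in the Eno2 levels was not tested. Eno3, the muscle enolase, was highest in Wt1-GFP cells, at 3.95 and 3.75, and stood at 2.40 at E8.75, 2.38 and 3.07 at E9.5, 3.47 and 3.16 at E10.5 and 2.97 at E11.5.

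**Figure D2:**
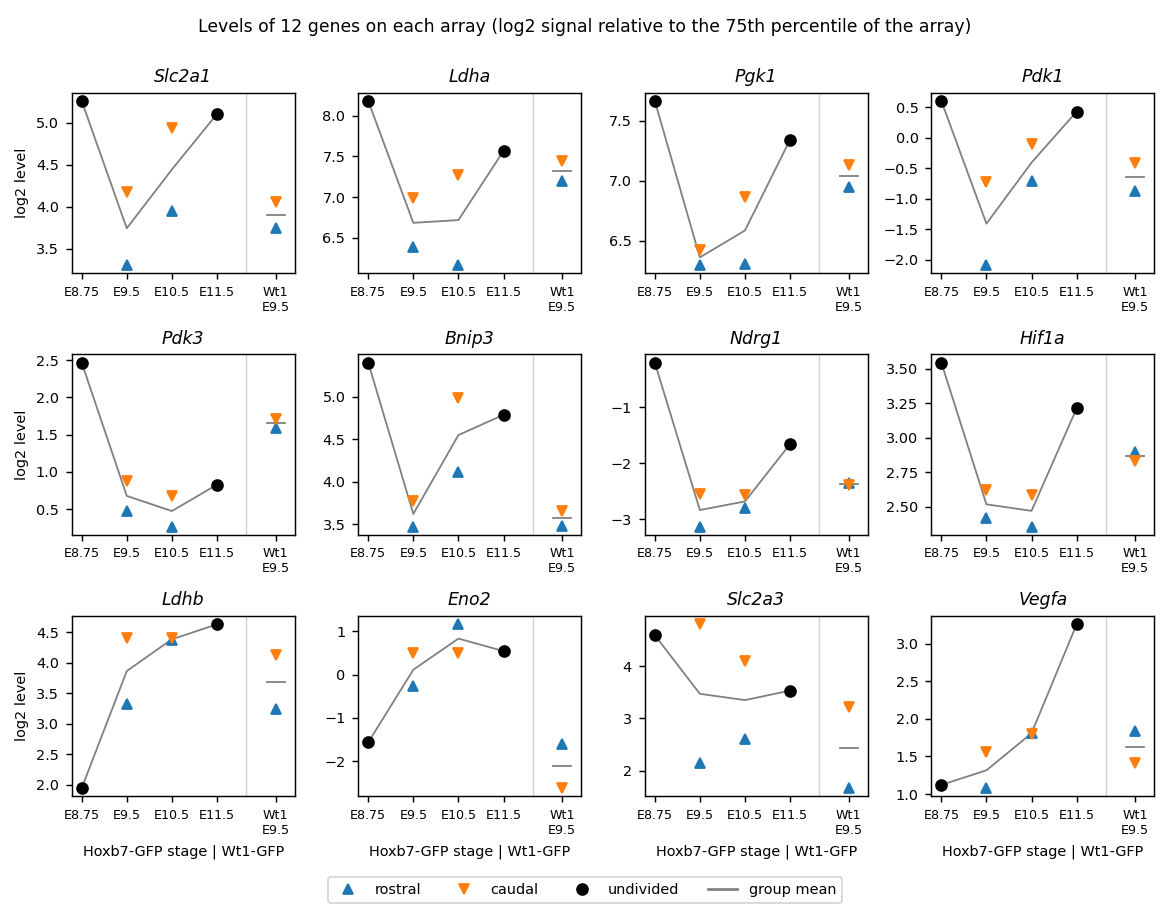
Each panel plots the log2 level of 1 gene on the 8 arrays, with rostral parts as blue triangles, caudal parts as orange triangles, undivided samples as black circles, and group means as grey lines. Slc2a1, Ldha, Pgk1, Pdk1 and the Hif1a probe used (not its second probe) dip at E9.5 or E10.5 and stand higher again at E11.5, while Ldhb goes from 1.94 at E8.75 to 4.63 at E11.5.

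Regulators that set how much pyruvate is oxidised or how fast glycolysis runs had a median of -1.48 at this step (over 4 genes, with the probes used). Pdk1, the kinase that shuts off pyruvate dehydrogenase and a known HIF target, had levels of 0.60 at E8.75, -2.08 and -0.73 at E9.5, -0.70 and -0.11 at E10.5, 0.43 at E11.5, and -0.87 and -0.42 in Wt1-GFP cells. E8.75 and E11.5 stood above the other 6 arrays, and the first step was -2.01 (SE 0.39, adjusted p = 0.24), a 4.02-fold lower signal. Pdk3, another kinase of the same enzyme, had levels of 2.47 at E8.75, 0.48 and 0.87 at E9.5, 0.27 and 0.68 at E10.5, 0.83 at E11.5, and 1.59 and 1.71 in Wt1-GFP cells. Unlike Pdk1 it stayed low in the bud, so that all 5 later duct arrays lay below both Wt1-GFP arrays and the E8.75 array (first step -1.79, SE 0.26, adjusted p = 0.21, or 0.0483 with the intensity trend). Pfkfb3, which makes the activator of phosphofructokinase, had levels of 2.22 at E8.75, 0.30 and 1.78 at E9.5, 1.79 and 1.81 at E10.5, 3.30 at E11.5, and 1.10 and 1.21 in Wt1-GFP cells. The bud was highest and the rostral E9.5 duct lowest, with differences of -1.18 (SE 0.57) at the first step and 1.51 (SE 0.57) at the third. A second probe of Pfkfb3 gave 0.22 and -0.01 for these steps. Pfkfb4, a relative of Pfkfb3, was higher after E8.75: -3.12 at E8.75, -1.88 and -1.81 at E9.5, -0.83 and -1.55 at E10.5, -2.04 at E11.5, and -2.16 and -3.53 in Wt1-GFP cells (first step 1.27, SE 0.52, adjusted p = 0.36).

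Oxygen sensing had a median of -0.18 over 4 genes at this step, with the probes used. Hif1a, the HIF subunit found in most cells, was apart and lower: its levels were 3.55 at E8.75, 2.41 and 2.62 at E9.5, 2.36 and 2.58 at E10.5, 3.21 at E11.5, and 2.90 and 2.83 in Wt1-GFP cells. The 4 arrays of E9.5 and E10.5 duct lay below the other 4 arrays, with a first step of -1.03 (SE 0.26, adjusted p = 0.27). A second Hif1a probe, dimmer but well above background on all 8 arrays, read -0.81 at E8.75, -1.90 and -1.27 at E9.5, -1.24 and -0.12 at E10.5, -2.27 at E11.5, and -1.43 and -0.92 in Wt1-GFP cells. It was lower at E9.5 too (-0.78) but lowest of all in the bud, with a last step of -1.59, so the probes differ after E9.5. Epas1 (HIF-2 alpha), the subunit typical of endothelium, had levels of 2.93 at E8.75, 3.03 and 2.99 at E9.5, 3.12 and 3.14 at E10.5, 2.79 at E11.5, and 3.52 and 2.98 in Wt1-GFP cells, a first step of 0.07. Another of its 3 probes read 2.70 at E8.75 and -0.42 and 0.51 at E9.5, a difference of -2.65, so the probes of Epas1 disagree and no single course can be given for the gene. Egln1, the main oxygen-sensing prolyl hydroxylase, ranged only from -3.25 to -2.31 over the arrays. Egln3, a hydroxylase that HIF induces in turn, had levels of 0.27 at E8.75, 0.85 and -0.77 at E9.5, -1.82 and -0.74 at E10.5, -0.63 at E11.5, and -1.28 and -0.84 in Wt1-GFP cells, and its 2 E9.5 duct arrays lay 1.62 apart.

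Among the 8 hypoxia targets, 5 were apart and lower at E9.5, and the median of the 8 was -1.42. Ndrg1, a stress-responsive gene used as a hypoxia marker, differed most of all 37 genes: its levels were -0.21 at E8.75, -3.13 and -2.54 at E9.5, -2.79 and -2.57 at E10.5, -1.66 at E11.5, and -2.35 and -2.38 in Wt1-GFP cells. The E8.75 array stood alone at the top, followed by the bud (first step -2.63, SE 0.31, adjusted p = 0.20, a 6.17-fold lower signal). Bnip3, a mitochondrial protein that starts the removal of mitochondria, had levels of 5.40 at E8.75, 3.48 and 3.77 at E9.5, 4.12 and 4.98 at E10.5, 4.79 at E11.5, and 3.48 and 3.66 in Wt1-GFP cells. The 4 E9.5 arrays of both reporters were the lowest, and the first step was -1.77 (SE 0.34, adjusted p = 0.24) here and -1.82 on a second bright probe. Ankrd37, a small HIF target, had levels of 0.31 at E8.75, -1.25 and -0.89 at E9.5, -0.91 and -0.29 at E10.5, -0.15 at E11.5, and -1.57 and -1.95 in Wt1-GFP cells, so every duct array lay above both Wt1-GFP arrays and E8.75 was highest (first step -1.38, SE 0.41). P4ha1 and P4ha2 encode the catalytic subunits of the collagen prolyl hydroxylase and parted at E11.5. P4ha1 had levels of -1.90 at E8.75, -2.72 and -3.99 at E9.5, -3.52 and -3.66 at E10.5, -1.91 at E11.5, and -3.76 and -2.91 in Wt1-GFP cells. P4ha2 had levels of 0.21 at E8.75, -1.65 and -1.15 at E9.5, -3.01 and -2.15 at E10.5, -2.80 at E11.5, and 0.14 and -0.70 in Wt1-GFP cells. On these probes P4ha1 was as high in the bud as at E8.75, while P4ha2 was low there (first steps -1.45, SE 0.72, and -1.61, SE 0.62). A second P4ha1 probe, well above background on 5 arrays, read -4.52 at E8.75 and -2.84 in the bud, with a first step of 0.05, so the course of P4ha1 holds for the probe used. Car9, a carbonic anhydrase and textbook HIF target, was dim, from -2.32 to -1.16, with both E9.5 arrays above the E8.75 array by 0.79 on average.

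Vegfa, the angiogenic factor that signals to Flk1, did not share the first step. Its levels were 1.12 at E8.75, 1.08 and 1.55 at E9.5, 1.81 and 1.80 at E10.5, 3.26 at E11.5, and 1.83 and 1.41 in Wt1-GFP cells. The bud stood above every other array, by 1.45 over the E10.5 duct (SE 0.38, adjusted p = 0.35), and the slope was 0.76 per embryonic day (SE 0.14, adjusted p = 0.16, or 0.0457 with the intensity trend). A second Vegfa probe, annotated to another transcript, read -0.03 at E8.75, 0.34 and 0.61 at E9.5, 1.33 and 1.84 at E10.5 and -0.01 at E11.5, so at the last step it went the opposite way (-1.59), and the mean of both probes gave -0.071.

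Other genes moved with the same array. The summed signal of 8 endothelial markers was 44.0 at E8.75, where all 8 were well above background, and 4.1 to 6.1 on the 7 other arrays. Kdr itself, the target of the Flk1 gate, had a level of 4.12 at E8.75 and 1.95 and 1.84 at E9.5. Visceral endoderm markers summed to 6.8 at E8.75, with 6 of 6 well above background, and to 0.2 to 1.1 elsewhere. The cell cycle list (17 genes) summed to 398.5 at E8.75 and to 200.8 and 280.3 at E9.5, with a median first step of -0.63. Blood markers ran the other way, with sums of 3.1 at E8.75 and 15.2 and 35.4 at E9.5 and 4 of 7 genes apart and higher at E9.5. Of the 11 duct markers, 4 were apart and higher at E9.5 and 2 apart and lower. The 4 were Cdh1, Krt8, Krt18 and Epcam, an epithelial adhesion molecule higher by 4.37 (limma adjusted p = 0.21). The 2 lower were Lhx1 (4.51 at E8.75, 3.10 and 3.69 at E9.5) and Pax8 (2.35, then 1.30 and 0.03). The part of these cells, of epithelial content and of proliferation in the first step was not tested, and in sorted bulk samples fewer cells of a type and less RNA per cell cannot be told apart. The 3 arrays of the first step shared a slide part. Genes of pyruvate oxidation, the citric acid cycle and the respiratory chain (37 genes) were lower at E9.5 as well, by a smaller median of -0.48, with 33 below 0 and 1 apart and lower, namely Brp44l (Mpc1, a mitochondrial pyruvate carrier subunit, -1.48). Their 1 gene apart and higher was Ppargc1a, a coactivator of mitochondrial biogenesis, at 2.23. Without regard to size, the arrays did not overlap for 28 lower genes of this list (39.9% of all names) and 3 higher genes (36.1%). The module had 24 lower genes by that count, also of 37. In the cell cycle list, 14 of 17 genes were lower and 2 higher by the same count.

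Other genes of both pathways were read from wider lists. Of 49 further hypoxia response genes, 14 were apart and lower at E9.5 (10.7% of all names were) and 8 apart and higher (11.7%), with a median of -0.41. Tmem45a (-3.66, with 1 of 2 E9.5 arrays not well above background), the VEGF receptor Flt1 (-2.90) and the insulin-like growth factor carrier Igfbp3 (-2.82) were the lowest, and Flt1 is itself an endothelial gene. The carbonic anhydrase Car12 was higher by 1.69. Mxi1, a Myc antagonist, and Bhlhe40, a circadian repressor, were not well above background at E8.75. Counted against the dimmest signal well above background on the E8.75 array, they were 2.25-fold and 2.04-fold higher at E9.5. Brighter probes can also miss that background call, so such folds are not strict lower limits. Of 36 further genes of glycolysis and glucose handling, 7 were apart and lower and 6 apart and higher, with a median of -0.05. Pgm1 (-2.09) and Slc2a10 (-1.88, with 1 of 2 E9.5 arrays not well above background) were the lowest of them. Hkdc1, a hexokinase relative, Slc16a7 and Slc2a5 were not well above background at E8.75. Counted against the same dimmest signal, Hkdc1 was 2.98-fold higher at E9.5. Slc16a7 and Slc2a5 lay above that signal at E8.75, and at E9.5 they were 3.81-fold and 3.18-fold higher than their own E8.75 levels. Limma's adjusted p for the genes named here lay above 0.05 in every case.

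**Figure D3:**
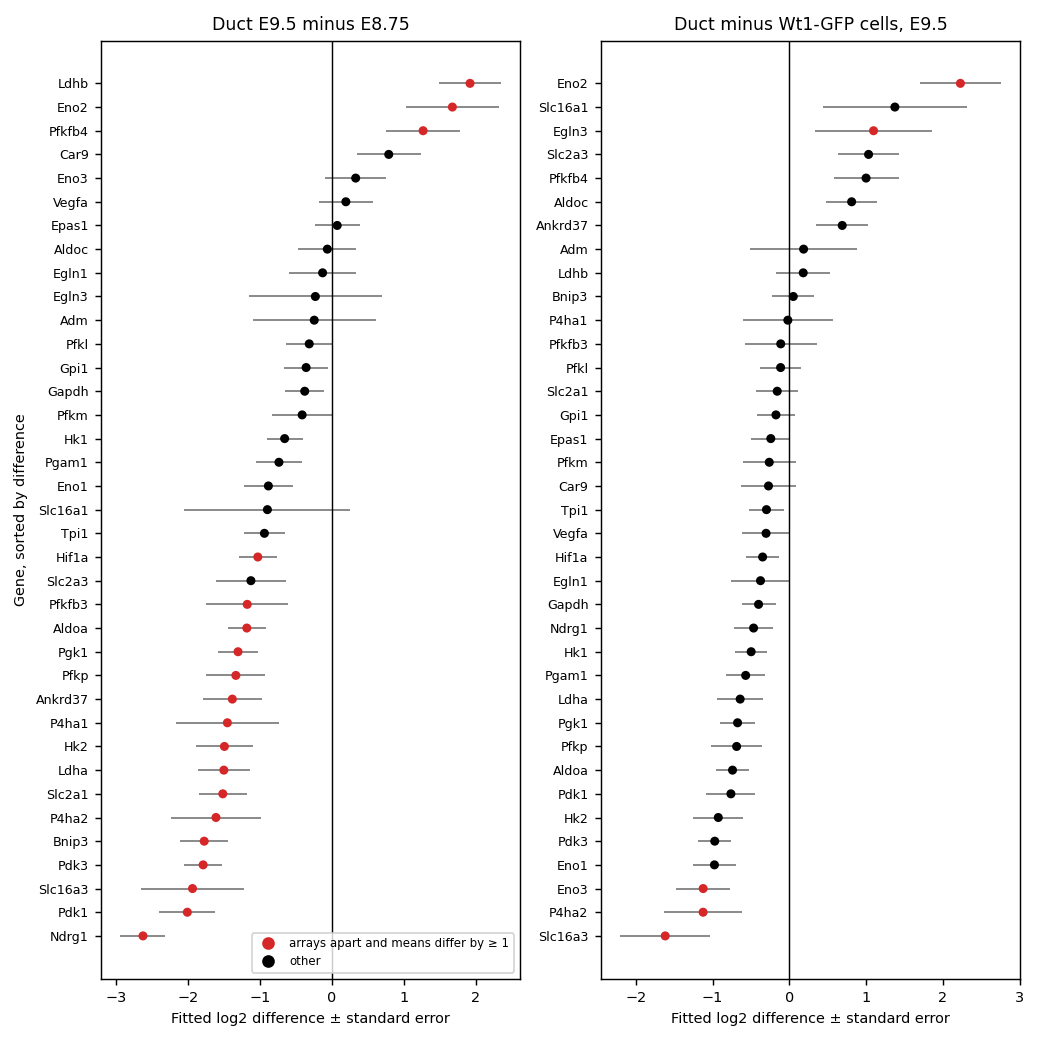
Points show the fitted log2 difference of each of the 37 genes, and lines show 1 standard error, for E9.5 against E8.75 duct (left) and for E9.5 duct against E9.5 Wt1-GFP cells (right); red marks genes apart by at least 1. On the left 30 genes lie below 0 and Ndrg1 is lowest at -2.63, and on the right 27 lie below 0 with Eno2 highest at 2.23.

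From E9.5 to E10.5 the module stood slightly higher, with a median of 0.21 against 0.00 over all names and with 26 of 37 genes above 0. None was apart and higher (4.66% of all names were) and 2 were apart and lower (4.34%), namely Pfkp, described above, and P4ha2 (-1.18, SE 0.51, adjusted p = 0.72). Bnip3 differed by 0.92, Pdk1 by 0.999 and Aldoc by 0.997 without meeting the rule. Without regard to size, 13 genes had both E10.5 arrays above both E9.5 arrays (18.1% of all names) and 2 had them below (16.6%). At an unadjusted limma p under 0.05, 3 genes were higher (3.81% of all names) and 1 was lower (3.62%). The count of genes apart and higher became 9 without the caudal E9.5 array, 5 without the rostral E10.5 array and 3 without the caudal E10.5 array, and that of genes apart and lower became 4 without the rostral E9.5 array. With 1 array left in a group, arrays of any gene overlap less easily, and the share of all names was not counted there. Among the further lists, Ppp1r3c (2.46), which targets a phosphatase to glycogen, Ddit4 (1.63), an inhibitor of mTORC1, and Hkdc1 (2.29) were apart and higher, as was Ppargc1a (2.24). At the last step, from the E10.5 duct to the E11.5 bud, 6 genes were apart and higher (10.7% of all names) and 0 apart and lower (9.92%), with a module median of 0.33. They were P4ha1 (1.67, SE 0.72), Pfkfb3, Vegfa, Pfkp, Hk2 (1.28, SE 0.40) and Ndrg1 (1.02, SE 0.31), all at adjusted p of 0.35 or more in limma. Without regard to size, 19 genes stood above both E10.5 arrays (37% of all names) and 5 below both (37.9%). At an unadjusted limma p under 0.05, 4 genes were higher (7.2% of all names) and 0 lower (5.4%). The count of 6 became 13 without the caudal E10.5 array, and the count of 19 became 29. With 1 array on each side no arrays can overlap, so only direction and size are left in these counts. The share of all names under this looser rule was not counted. Slc2a1 and Ldha were higher in the bud by 0.66 and 0.85, short of the 1-unit mark, while the probes of Hif1a gave 0.74 and -1.59. Of the further hypoxia genes, the adenylate kinase Ak4 (1.41) and the oxidoreductase Ero1l (1.14) were higher in the bud. Epo was not well above background there, and its own level was 3.91-fold lower. Other lists differed at this step too: of the 13 stress genes 5 were apart and higher in the bud (median 0.74), of the 17 cell cycle genes 13 lay above 0 (median 0.37, with 2 apart and higher), and of the 7 blood markers 3 were apart and higher. Their part in the last step was not tested. Steps that follow each other share the arrays between them, so a low E9.5 value enters the first and the second step with opposite sign.

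At E9.5 the duct and the Wt1-GFP intermediate mesoderm were compared directly, with the same duct arrays as in the first and second steps. In the duct, 3 genes were apart and lower (5.55% of all names) and 2 apart and higher (7.73%), and the module median was -0.30 against -0.05 over all names. Counting every gene whose arrays did not overlap, 17 were lower in the duct (27.9% of all names) and 5 higher (19.9%). At an unadjusted limma p under 0.05, 5 were lower (6.89% of all names) and 1 was higher (6.42%). The 3 genes apart and lower became 1 without the rostral duct array and 8 without the caudal one, and the 2 apart and higher became 4 when the rostral duct array was dropped and 5 when the rostral array of the Wt1-GFP pair was. These counts also rest on a group of 1 array, where overlap is less likely for any gene, without a share of all names. The 3 lower genes were Slc16a3 (-1.62, SE 0.59, adjusted p = 0.38), Eno3 (-1.12, SE 0.35, adjusted p = 0.35) and P4ha2 (-1.12, SE 0.51, adjusted p = 0.42). Eno2 was higher in the duct by 2.23 (SE 0.53, adjusted p = 0.31), a 4.68-fold difference, and Egln3 by 1.10 (SE 0.76, adjusted p = 0.55). Egln3 rested on the rostral duct array, and without it the difference was -0.09. Of the core enzymes, Eno1 (-0.98), Pdk3 (-0.97), Hk2 (-0.93), Aldoa (-0.74), Pgk1 (-0.67) and Ldha (-0.64) were lower in the duct without reaching 1 unit, with no overlap of arrays, and Gapdh differed by -0.40. Hk1 counts among the 17 lower genes (-0.50) through its probe on chromosome 5. Both Hk1 probes on chromosome 10 were apart and higher in the duct (1.06 and 1.51). A second Pfkfb3 probe was apart and higher too (1.53), where the probe used gave -0.11. With the intensity trend 632 names (2.15%) passed adjusted p = 0.05 in limma, of which 1 belonged to the module, Aldoa (adjusted p = 0.0351, lower; 1.15% of all names passed lower and 0.998% higher); it no longer passed when the caudal E9.5 duct array, either E10.5 array or either Wt1-GFP array was left out. Both duct arrays of this comparison lay in one slide part and both Wt1-GFP arrays in the other, so slide part and reporter cannot be told apart within the pair. With slide part as a block the module median was -0.07 and Slc16a3 changed sign, to 0.16.

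Related genes differed between duct and mesoderm in both directions. The respiratory list had 34 of 37 genes below 0 in the duct (median -0.34), and the cell cycle list 15 of 17 (median -0.55). Counting genes whose arrays did not overlap, 22 of the respiratory list were lower in the duct (27.9% of all names) and 0 higher (19.9%). The module had 17 lower by that count, and the cell cycle list had 12 lower and 1 higher. Mesenchyme markers summed to 41.3 and 27.3 in Wt1-GFP cells and to 5.6 and 3.4 in the E9.5 duct, and blood markers to 10.0 and 6.7 against 15.2 and 35.4; the part of these cells in the differences was not tested. Epo, the hypoxia-regulated hormone of red cell formation, was higher in the duct (limma adjusted p = 0.21). Counted against the dimmest signals well above background on the Wt1-GFP arrays, the difference was 2.37-fold. Its own levels in the duct were -2.33 and -3.42, and on both Wt1-GFP arrays, at -6.01 and -6.07, it lay below the dimmest signal called well above background. Pygl (2.28), a glycogen phosphorylase, was higher in the duct too, and Pgf (-3.86), a relative of Vegfa, and Igfbp3 (-2.67) were lower. Of the further hypoxia genes, 1 was apart and higher and 7 apart and lower (median -0.12 over 49), and of the further glycolysis genes 4 and 1 (median 0.07 over 36).

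Position along the body axis was compared within the pairs. In each of the 3 split groups (E9.5 duct, E10.5 duct and E9.5 Wt1-GFP cells), 14 of the 37 genes were higher in the caudal part, where 15.2% of all names were, and 1 was higher in the rostral part, where 15.9% were. The 14 were Slc2a1, Slc2a3, Hk2, Aldoa, Tpi1, Pgk1, Pgam1, Eno1, Ldha, Ldhb, Pdk1, Pdk3, Pfkfb3 and Bnip3, with the probes used. A second Tpi1 probe was higher in the rostral E9.5 duct (4.97 against 4.36). A second Pfkfb3 probe was higher in the rostral Wt1-GFP cells (-1.28 against -1.84), as was a dim probe of Bnip3. The other probes of Ldha and the second bright probe of Bnip3 were higher in every caudal part. By size, 1 gene lay at least 1 unit lower in rostral parts on average (1.33% of all names) and 1 higher (3.44%). At an unadjusted limma p under 0.05, 4 were lower in rostral parts (2.78% of all names) and 1 was higher (3.98%). Leaving out either array of a pair removes the whole pair from these counts, so 2 pairs remain and the rule is easier to meet. Without the Wt1-GFP pair the count of 14 became 22, and that of 1 lower by size became 4. Without the E9.5 duct pair the 1 higher by size became 2. The share of all names under this looser rule was not counted. Over all 3 pairs, the 1 gene lower by size was Slc2a3, with rostral minus caudal differences of -2.67 in the E9.5 duct, -1.51 in the E10.5 duct and -1.56 in Wt1-GFP cells (fitted -1.91, SE 0.32, adjusted p = 0.73). The 1 gene higher by size was Adm, the vasodilator adrenomedullin, with levels of -1.54 at E8.75, -0.66 and -2.90 at E9.5, -1.42 and -3.81 at E10.5, -1.73 at E11.5, and 0.30 and -4.23 in Wt1-GFP cells. Each rostral array of Adm lay above its caudal partner, by 2.25, 2.38 and 4.54 (fitted 3.06, SE 0.57, adjusted p = 0.73), and the caudal Wt1-GFP level was the one not well above background on its array. In the other 13 caudal-higher genes the fitted difference ran from -0.98 (Hk2) to -0.14 (Aldoa).

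Several lists differed between the same parts. The cell cycle sum was 200.8 rostral and 280.3 caudal in the E9.5 duct, 141.8 and 222.7 in the E10.5 duct, and 331.6 and 370.9 in Wt1-GFP cells, and 14 of its 17 genes were higher in all 3 caudal parts. Of the 37 genes in the respiratory list, 12 were higher in all 3 caudal parts (15.2% of all names) and 3 in all 3 rostral parts (15.9%). Its fitted difference was below 0, thus lower in rostral parts, for 28 genes. Neural markers ran from 102.1 rostral to 9.8 caudal at E9.5, and heart markers (4 measured) from 7.4 to 0.8, which are higher in the rostral part. At E10.5 neural markers were higher caudally (8.7 against 22.0) and heart markers were equal (1.4 and 1.4). The part of cell cycle and of other cells in the position differences was not tested. The rostral and caudal E10.5 arrays lay in different slide parts, whereas both arrays of each E9.5 pair shared one. A limma interaction of position with reporter gave 0 names past adjusted p = 0.05 (1717 at unadjusted p under 0.05). In the module 2 genes had an unadjusted p under 0.05, both lower (3.38% of all names), and 0 higher (2.47%). They were Slc16a1 and Adm, the genes not well above background on 2 and on 1 of the Wt1-GFP arrays, so no size is given (adjusted p = 0.81 for both). Among the further genes, Pgam2 (1.84) was higher in rostral parts. Hkdc1, Mxi1, Lox and Tmem45a were apart and higher in rostral parts and Slc2a10, Stc1 and Stc2 in caudal parts, but each was below that background mark on 1 to 4 of the 8 arrays, so no size is given.

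**Figure D4:**
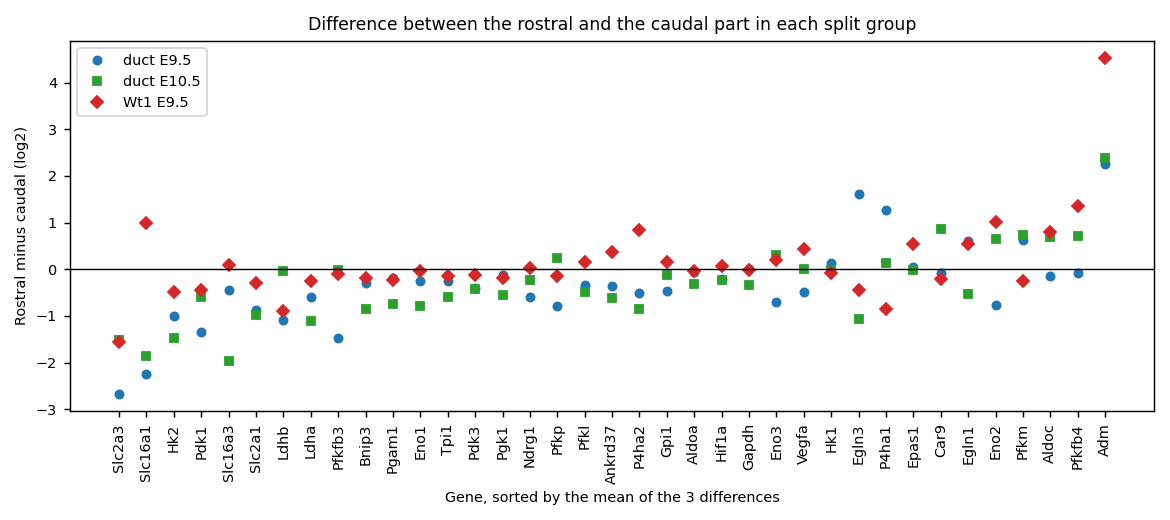
Each point is the rostral minus caudal log2 difference of 1 gene in the E9.5 duct (blue circles), the E10.5 duct (green squares) or E9.5 Wt1-GFP cells (red diamonds), sorted by the mean of the 3. All 3 points of Slc2a3 lie between -2.67 and -1.51, and those of Adm between 2.25 and 4.54.

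The gene names whose course over the 8 arrays was most like those of the 2 genes with the largest first-step difference (Ndrg1, Pdk1) and those with the highest and lowest slope per day (Ldhb, P4ha2) were found among 19845 names by Pearson correlation, given as a description and without a test, since E8.75 alone can set such a value. For Ndrg1 the best named match was Mrpl24 (r = 0.988). Pdk1 was most like Ctnna1 (r = 0.961), Pick1 (r = 0.957) and Rsph6a (r = 0.956). After a probe without a gene name, Ldhb was most like Tmem132a (r = 0.982) and Prim2 (r = 0.963). P4ha2 was most like 2310021P13Rik (r = 0.986), Igf2bp3 (r = 0.981) and Csrp1 (r = 0.981).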

How the data were processed

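RNA (10 ng per sample) was amplified, labelled with Cy3 and hybridised to 8 Agilent arrays, per the labels' protocols. Each deposited intensity is, per the file headers, the background-subtracted, detrended signal of Agilent Feature Extraction 10.7.3.1. The authors' deposited value table holds log2 values. They followed the log2 signal below, centred on each probe's median (r = 0.9998 over 55663 probes), and served as an alternative.

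Outlier and control spots were left out and repeat spots averaged. The log2 signal minus that of the array's 75th percentile (242.9 to 316.7) was fitted over 29361 gene names with limma 3.58.1 in R 4.3.3 (files read with version 1.17.8 of data.table), with 5 group terms and position (rostral 0.5, caudal -0.5, undivided 0). A group of 1 array took its spread from the rest. Chromosomes of probes are those of the files' mm9 coordinates. The fit was checked on simulated data. Genes given in full were those apart by 1 unit in any comparison, plus Hif1a, Epas1, Slc2a1, Gapdh, Ldha, Ldhb, Pgk1 and Vegfa; from each further list, up to 3 genes each way were eligible, of which 1 gene is not reported here. The genes and lists were chosen with earlier results of these data known. A list of 15 dissociation and stress genes (13 measured) had a median first step of 0.60 and sums of 149.4 to 305.8. Alternatives were quantile normalisation, normexp, the deposited table, probe filters, probe choice, the intensity trend, no position term, slide part as a block, and leaving out each array.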

Additional observations from a re-analysis of the deposited data

How the results depend on the processing

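Of 618 values for single genes under alternatives, 610 kept their direction and side of the threshold, 5 newly passed it and 3 reversed. The reversals were Vegfa at the last step (-0.071 with the mean of all probes), Slc16a3 in duct against Wt1-GFP cells (0.16 with slide part as a block) and Egln3 there (-0.091 to 2.28 on leaving out 1 array, the lowest without the rostral E9.5 duct array). As above, "apart" means no overlap and a mean difference of at least 1. The causes were not tested. Names past adjusted p = 0.05 for reporter, first step and slope numbered 209, 166 and 995 with normexp, 632, 375 and 689 with the intensity trend (and 1 for the interaction), and 8, 16 and 205 without a position term; genes of the module among them were 1 (first step) and 3 (slope) with normexp, and 1, 4 and 2 with the trend. The module's median first step was -0.64 with quantile normalisation and -0.70 with the mean of probes, its last step 0.12 with the mean of probes and 0.13 with slide part as a block, and its reporter difference -0.074 with that block. Genes apart and higher numbered 1 at the second step with quantile normalisation, with the mean of probes and with the brightest probe on the RefSeq chromosome (chosen after seeing the data). They numbered 1 for the reporter with normexp, 3 at the last step with the mean of probes (12 without regard to size), and 0 or 2 by position with probes well above background on all 8 arrays or with the mean of probes. Genes apart and lower at the second step numbered 0 with normexp. With an array of a compared group left out, the rule of no overlap is easier to meet for any gene. Shares of all names that were apart were not counted there. For position, leaving out either array of a pair removes that pair from the counts. Leaving out 1 array gave 2 to 5 genes higher and 1 to 8 lower for the reporter, with a median of -0.48 to -0.21. It gave 14 to 19 lower at the first step, 0 to 9 higher and 2 to 4 lower at the second (13 to 24 higher without regard to size), and 5 to 13 higher and 0 to 1 lower at the third (19 to 29 higher without regard to size, median 0.13 to 0.53). By position it gave 1 to 2 higher and 1 to 4 lower (14 to 22 lower without regard to size), the 22 without either Wt1-GFP array, and 0 names passed in any such fit. The labels give no replicate numbers, so samples of different groups could not be paired by embryo or litter. The rostral and caudal parts they do name enter the fit as the position term, which compares them within each group. Of the 37 genes, 35 were well above background throughout, and the number of arrays limits the precision.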
